A study of Mus musculus with 6 samples.

Results

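The nuclear genes for the subunits of respiratory complexes II to V were followed in marrow cells grown from transplanted haematopoietic stem cells (HSCs) that had received, before transplantation, either a miR-31-5p inhibitor or a control RNA. The set was every deposited gene symbol that is Sdha, Sdhb, Sdhc, Sdhd or Cyc1, or that starts with Uqcr, Cox4, Cox5, Cox6, Cox7, Cox8 or Atp5. It held 48 of 25033 gene symbols, of which 4 belong to complex II, 9 to complex III, 18 to complex IV and 17 to complex V. Of these, 43 had enough counts to be tested. Mitochondrially encoded subunits of complexes III, IV and V carry other symbols and were not analysed here.

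The series compared 3 libraries of green fluorescent (GFP+) cells from recipients of control RNA-treated HSCs with 3 from recipients of HSCs given the miR-31-5p inhibitor. The mice were of strain C57BL/6J, labelled 6 months of age, and carried no other labelled allele or treatment. The labels do not say how GFP was introduced, how long after transplantation the marrow was taken, or whether each library is a separate animal. The p-values therefore measure no more than the spread among these libraries, and that spread may be technical. Levels are CPM, counts scaled to the library size and by the TMM factors of edgeR, and per-library values are given in the order of libraries 1, 2 and 3. Changes are log2 differences, inhibitor minus control, with their standard error (SE), and a gene was called when edgeR's quasi-likelihood test gave an adjusted p under 0.05 over all genes tested.

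Complexes II, III and IV pass electrons along the inner mitochondrial membrane. Complex II, succinate dehydrogenase, takes them from succinate in the citric acid cycle to ubiquinone, complex III moves them from ubiquinol to cytochrome c, and complex IV, cytochrome c oxidase, hands them to oxygen. Complexes III and IV pump protons as they work, and complex V, the ATP synthase, uses the returning protons to make ATP. HSCs are known for a low reliance on this machinery at rest and for engaging it as they divide and differentiate. In bulk RNA, fewer cells of a type and less RNA per cell cannot be told apart.

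The microRNA that was inhibited pairs with transcripts through its seed, bases 2 to 8, so its mature sequence is shown with the seed in capitals, together with the 2 stretches of the subunit genes' 3′ UTRs that match it. The mature sequence lies at chr4:88910614-88910635 on the minus strand (RefSeq, GRCm38.p6), and in the 3′ UTR stretches the capitals mark the match.
mmu-miR-31-5p: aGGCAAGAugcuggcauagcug
Cyc1: tctgcttgtcaTCTTGCCAgaacaagctct
Sdhc: ctgagtcaggcCTTGCCAagtacccagccc
The letters sought in the longest annotated 3′ UTR (GENCODE M21) were TCTTGCC, which pairs with bases 2 to 8, and CTTGCCA, which pairs with bases 2 to 7 and ends in A. Where both overlap, as in Cyc1, they form the 8-base match TCTTGCCA. A match of either kind was present in 2 of 48 subunit genes (4.167%) and in 3366 of 19447 genes with a 3′ UTR (17.309%). The subunit genes' 3′ UTRs were short, with a median of 171 bases against 868 bases over all genes. Of the 2 genes with a match, Cyc1 was lower in the inhibitor libraries and Sdhc did not pass the test, as described with their complexes. The Sdhc match starts at base 1729 of a 3′ UTR of 2636 bases, whereas the longest Sdhc transcript in the deposited counts had 1179 bases. That match may therefore lie outside the transcript that was counted. The counts give no measure of the inhibition itself, because mature microRNAs are too short for a library of this kind.

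Libraries held 16873188 to 21245861 counts, so that 3 counts in a library corresponded to 0.141 to 0.178 CPM. Compared in pairs by a chi-square over genes, divided by its degrees of freedom, controls gave 7.55 to 16.78, inhibitor libraries 3.04 to 4.24 and pairs across groups 36.15 to 55.75, where 1 would be counting noise alone. On the second principal component, with 9.5% of the variance, control library 1 was at 21.34 and the other controls at -13.72 and -9.31, while the first (70.8%) separated the groups. The labelled stem cell identity was set against marker genes: the 12 HSC markers summed to 1031 to 1067 CPM in controls and 1092 to 1137 CPM in inhibitor libraries. Kit, Cd34 and Flt3, which did not pass with all controls, made up most of that sum. Of the 11 HSC markers tested, 3 were higher (Procr 2.82, Slamf1 1.70 and Ctnnal1 1.24 on the log2 scale) and 2 lower (Hlf -0.92 and Ly6a -0.41). Markers of maturing lineages were abundant in the same libraries, so the cells are called GFP+ cells here.

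With all 3 controls, 26 of the 43 tested subunit genes (60.5%) were lower in the inhibitor libraries and 0 were higher, beside 20.1% lower and 20.4% higher over all 12978 genes tested. At an unadjusted p under 0.05 the counts were 28 lower and 0 higher. How many of all genes passed at that unadjusted threshold was not counted. DESeq2 called 27 subunit genes lower and limma-voom 25, and both called 0 higher. Over all genes, DESeq2 called 2390 lower and 2574 higher, and limma-voom 2547 lower and 2659 higher. The falls were modest for most genes: the median log2 change of the 43 was -0.27, where that of all genes tested was -0.01. By complex, 3 of 4 genes of complex II, 5 of 9 of complex III, 4 of 13 of complex IV and 14 of 17 of complex V were lower. The 3 inhibitor libraries lay below all 3 controls for 31 of the 43 genes, beside 26.5% of all genes tested. They lay above all 3 controls for 0 of the 43, and the share of all genes lying above was not counted. The plot of changes by gene shows the size of each fall with both sets of controls.

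**Figure D1:**
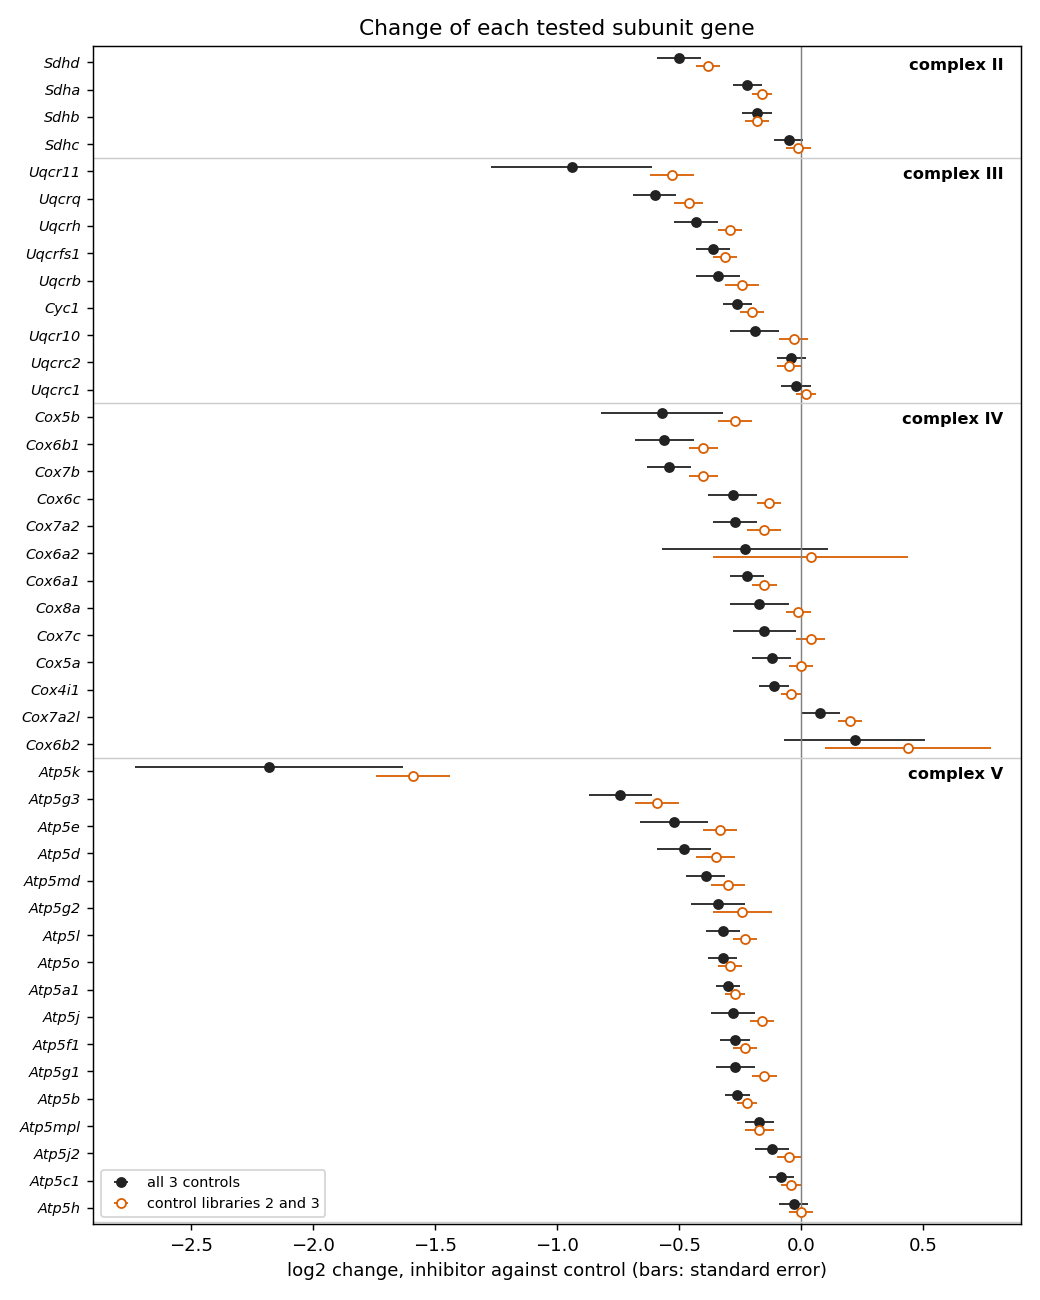
Log2 change of each tested subunit gene, inhibitor minus control (horizontal axis), with its standard error, from the fit with all 3 controls (filled) and from the fit with control libraries 2 and 3 (open). Most points lie left of 0, with Atp5k farthest at -2.18 and -1.59, and most complex IV genes move towards 0 when control library 1 is left out.

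Control library 1 had the highest level of the 3 controls in 41 of the 43 subunit genes (95.3%), against 43.5% of 12948 genes. Its median log2 difference from the mean of control libraries 2 and 3 was 0.32 over the subunit genes and 0.01 over all genes. The comparison was also made against control libraries 2 and 3 alone. There, 27 subunit genes were lower and 1 was higher, beside 21.5% lower and 21.6% higher over 13196 genes tested, and the median was -0.18 (0.00 over all genes). Lower calls numbered 3 in complex II, 6 in complex III, 5 in complex IV and 13 in complex V. The median of complex IV moved from -0.22 to -0.04, while those of complexes II, III and V went from -0.20 to -0.17, from -0.34 to -0.24 and from -0.30 to -0.23. The calls against both control sets were shared by 24 genes. Without control library 1, Atp5g2 and Cox7a2 were no longer called, Uqcr11, Cox5b and Cox6c were called lower, and Cox7a2l was called higher.

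The 3 inhibitor libraries lay close together. Measured from the mean of control libraries 2 and 3, the median subunit gene lay at -0.18, -0.22 and -0.20 log2 units in inhibitor libraries 1 to 3, and at 0.32 in control library 1. For complex V the inhibitor medians were -0.21, -0.24 and -0.29, for complex III -0.23, -0.25 and -0.26, and for complex II -0.13, -0.16 and -0.20. Those of complex IV were -0.04, -0.12 and -0.04, with control library 1 at 0.42. Summed over its 17 genes, complex V stood at 4515, 3956 and 3991 CPM in the controls and 3457, 3359 and 3320 CPM in the inhibitor libraries. Summed over 18 genes, complex IV stood at 1896, 1453 and 1482 CPM in the controls and 1392, 1385 and 1401 CPM in the inhibitor libraries. The sums of both complexes were lower in each inhibitor library than in each control.

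**Figure D2:**
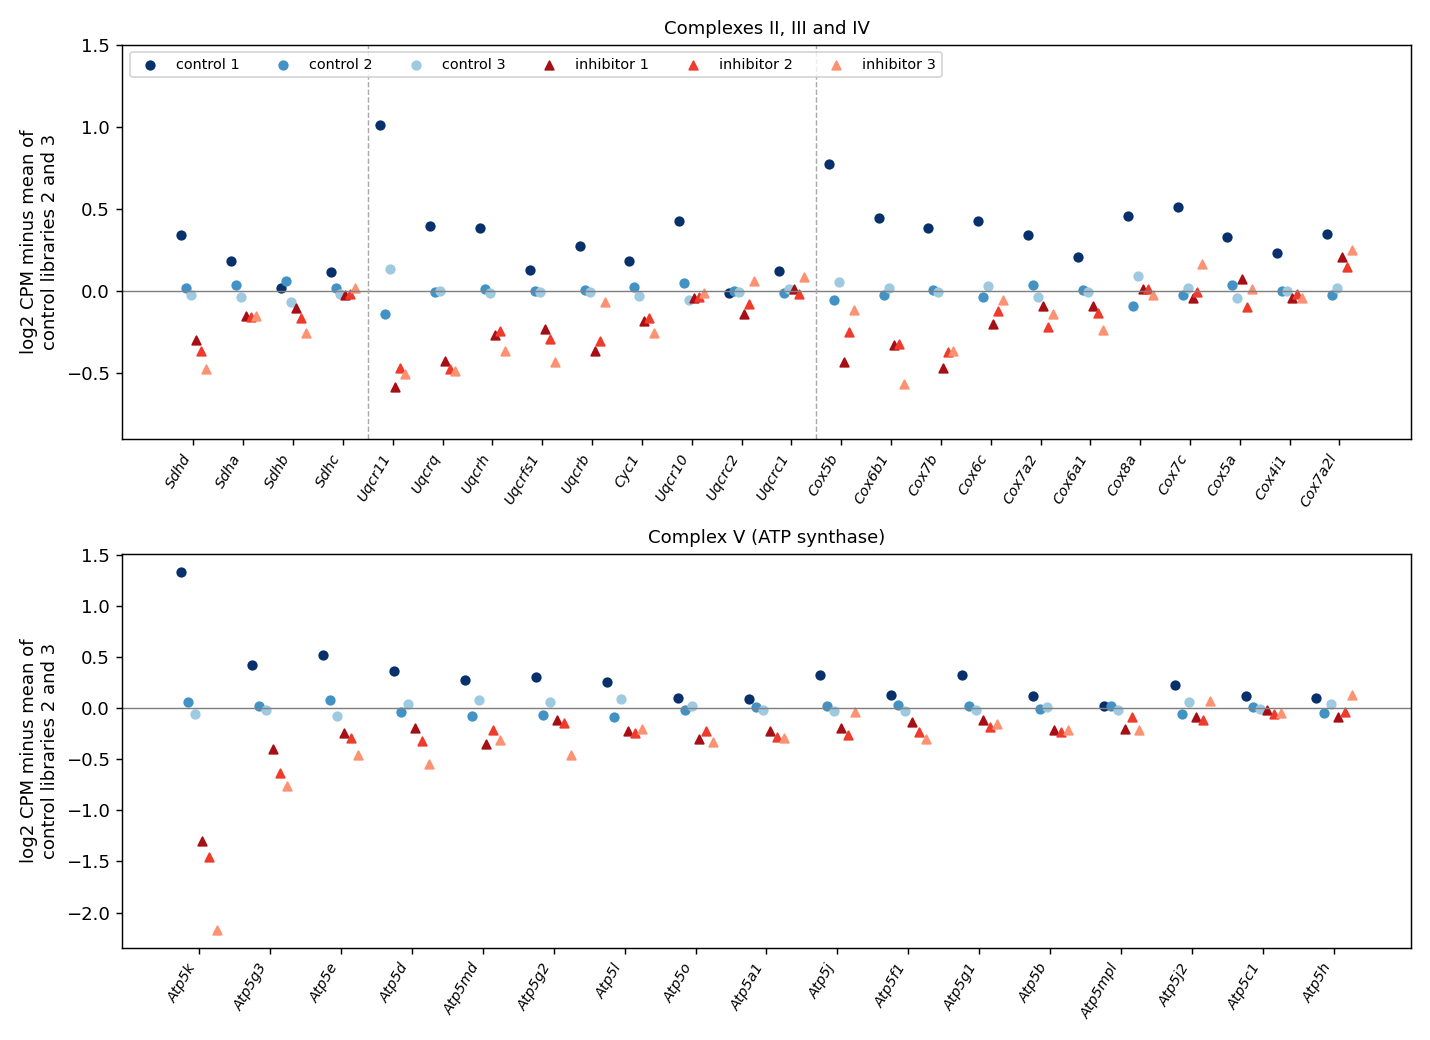
Level of each tested subunit gene in each library, as log2 CPM minus the mean of control libraries 2 and 3 (vertical axis; circles control, triangles inhibitor), for complexes II to IV (top, dashed lines between them) and complex V (bottom); the low-count genes Cox6a2 and Cox6b2 are not drawn. Control library 1 is the highest control for nearly every gene, and the inhibitor triangles lie below 0 for most genes of complexes II, III and V.

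In complex II, 3 of the 4 genes fell, and the membrane anchor Sdhd fell most. Sdhd (chromosome 9, 50596340 to 50603849; all gene coordinates are RefSeq on mm10) was at 155, 125 and 121 CPM in the controls and 99.99, 95.3 and 88.3 CPM in the inhibitor libraries. Its log2 change was -0.50 ± 0.09 (edgeR adjusted p = 0.000515), and -0.38 ± 0.05 against control libraries 2 and 3 (6.45e-08 by the same edgeR test), with no overlap between groups. The other anchor, Sdhc, was at 121, 113 and 109.8 CPM in the controls and 109.5, 109.8 and 113 CPM in the inhibitor libraries. Its groups overlapped and its change of -0.05 ± 0.06 did not pass (edgeR adjusted p = 0.548). Sdha, the flavoprotein that oxidises succinate, was at 309, 279.8 and 266 CPM in the controls and 245, 245 and 246 CPM in the inhibitor libraries. Sdhb, the iron-sulfur subunit that passes the electrons on, was at 111, 115 and 105 CPM in the controls and 102, 97.8 and 92.0 CPM in the inhibitor libraries. Both catalytic genes were lower in every inhibitor library than in any control, by -0.22 ± 0.06 for Sdha (edgeR adjusted p = 0.00928) and -0.18 ± 0.06 for Sdhb (edgeR adjusted p = 0.0279). The Sdhb call was lost without control library 2 (-0.15), inhibitor library 2 (-0.18) or inhibitor library 3 (-0.14), and with the GC and length correction described below (-0.04).

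In complex III the electron-carrying subunits and most small subunits fell, while the 2 large core proteins did not pass. Uqcrfs1, the Rieske iron-sulfur protein (chromosome 13, 30540312 to 30545316), was at 119, 109 and 109 CPM in the controls and 92.9, 88.9 and 80.8 CPM in the inhibitor libraries. Cyc1, cytochrome c1 (chromosome 15, 76343513 to 76346260), whose 3′ UTR holds the seed match printed above, was at 123, 109.8 and 106 CPM in the controls and 95.1, 96.4 and 90.3 CPM in the inhibitor libraries. Both were below every control in every inhibitor library, with changes of -0.36 ± 0.07 (edgeR adjusted p = 0.000513) and -0.26 ± 0.06 (edgeR adjusted p = 0.00463). The core proteins Uqcrc1 and Uqcrc2, which brace the complex on its matrix side, had changes of -0.02 ± 0.06 and -0.04 ± 0.06 (edgeR adjusted p = 0.854 and 0.583). Uqcrc2 lay between 162.5 and 164.2 CPM in the controls and between 149.1 and 170.9 CPM in the inhibitor libraries, so its groups overlapped.

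Of the 5 small subunits of complex III, 3 were lower with all controls and 4 against control libraries 2 and 3. Uqcrq (chromosome 11, 53427922 to 53430831) was at 92.2, 70.0 and 70.3 CPM in the controls and 52.2, 50.5 and 50.1 CPM in the inhibitor libraries, a change of -0.60 ± 0.09 (edgeR adjusted p = 0.000195). Uqcrh, the hinge protein that helps dock cytochrome c (chromosome 4, 116066965 to 116075070), was at 128, 98.8 and 97.0 CPM in the controls and 81.4, 82.6 and 76.1 CPM in the inhibitor libraries. Uqcrb was at 84.9, 70.4 and 69.9 CPM in the controls and 54.6, 56.9 and 67.0 CPM in the inhibitor libraries, and its call was lost without inhibitor library 1 (-0.28). The groups did not overlap for any of these 3 genes. Uqcr11 (chromosome 10, 80402997 to 80406821) was at 64.3, 29.0 and 35.1 CPM in the controls and 21.3, 23.1 and 22.5 CPM in the inhibitor libraries. Control library 1 was far above the other 2 controls, which were in turn above the inhibitor libraries, and the change with all controls was -0.94 ± 0.33 (edgeR adjusted p = 0.0746). Against control libraries 2 and 3 Uqcr11 fell by 0.53 on the log2 scale (edgeR adjusted p = 9.29e-06), and it was also called without control library 2 (-1.15). Uqcr10 had a change of -0.19 ± 0.10, which did not pass with all controls and was called without control library 3 (-0.28).

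In complex IV much of the change seen with all controls rested on control library 1. With all controls, 4 of 13 tested genes were lower, and without inhibitor library 3 Cox6b1 and Cox7b were (2 of 13). Cox7b (chromosome X, 106015700 to 106022450), a small membrane subunit, was at 123, 94.8 and 94.1 CPM in the controls and 68.2, 73.2 and 73.6 CPM in the inhibitor libraries, a change of -0.54 ± 0.09 (edgeR adjusted p = 0.00047). Cox6b1, which faces the intermembrane space (chromosome 7, 30616971 to 30626114), was at 145, 105 and 108 CPM in the controls and 84.7, 85.1 and 71.9 CPM in the inhibitor libraries, a change of -0.56 ± 0.12 (edgeR adjusted p = 0.00469). For both, the inhibitor libraries were well below the nearest control, and against control libraries 2 and 3 each was at -0.40 ± 0.06. Cox6a1 was at 206, 179 and 178 CPM in the controls and 168, 163 and 151 CPM in the inhibitor libraries, and Cox7a2 was at 74.8, 60.6 and 57.7 CPM in the controls and 55.5, 50.9 and 53.8 CPM in the inhibitor libraries. Both were called with all controls (-0.22 ± 0.07 and -0.27 ± 0.09), Cox6a1 not without inhibitor library 3 (-0.18), and Cox7a2 not without control library 1 (-0.15), inhibitor library 2 (-0.24) or inhibitor library 3 (-0.27).

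Cox5b and Cox6c did not pass with all controls and were called lower without control library 1. Cox5b, a zinc-binding subunit on the matrix side (chromosome 1, 36691487 to 36693388), was at 123, 69.4 and 74.9 CPM in the controls and 53.5, 60.6 and 66.5 CPM in the inhibitor libraries. Its inhibitor libraries lay below all controls, but control library 1 was far above the other 2, and the change of -0.57 ± 0.25 did not pass (edgeR adjusted p = 0.14). Without control library 1 it was -0.27 ± 0.07 (edgeR adjusted p = 0.00207). Cox6c was at 157, 114 and 119.7 CPM in the controls and 102, 108 and 113 CPM in the inhibitor libraries, a change of -0.28 ± 0.10 (edgeR adjusted p = 0.0509), and was called without control library 1 (-0.13), 2 (-0.36) or 3 (-0.33). The remaining broadly expressed subunits Cox4i1, Cox5a, Cox7c and Cox8a had changes from -0.17 to -0.11 that did not pass. Cox4i1, the subunit through which ATP is known to modulate the enzyme, was at 364, 310.0 and 309.7 CPM in the controls and 301, 306 and 301 CPM in the inhibitor libraries, and Cox8a was at 214, 146 and 166 CPM in the controls and 157, 157 and 153 CPM in the inhibitor libraries. For Cox8a, Cox5a and Cox7c the inhibitor libraries overlapped control libraries 2 and 3, and Cox8a was called lower without control library 2 (-0.28).

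Cox7a2l, also named supercomplex factor for its reported role in joining complexes III and IV, went the other way against control libraries 2 and 3. The counts do not show whether its product has that role in these mice. It was at 194, 150.0 and 154 CPM in the controls and 176, 169 and 181 CPM in the inhibitor libraries (chromosome 17, 83501917 to 83514333). Every inhibitor library was above control libraries 2 and 3, and every one was below control library 1. The change was 0.08 ± 0.08 with all controls (edgeR adjusted p = 0.483) and 0.20 ± 0.05 against control libraries 2 and 3 (edgeR adjusted p = 0.000486). With all controls it was also called higher after the GC and length correction (0.20, edgeR adjusted p = 0.00321).

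The tissue-restricted isoforms of complex IV were at or near 0. Cox7b2, Cox8b and Cox8c, the last known from testis and Cox8b from muscle, had a count of 0 in every library, which allows up to 0.141 to 0.178 CPM per library. Cox4i2, known from lung, had 5, 0 and 1 counts in the controls and 2, 4 and 1 in the inhibitor libraries, and Cox7a1, known from heart and muscle, had 11, 4 and 4 against 7, 2 and 5. Neither was tested. Cox6a2, of heart and muscle and also a marker of plasmacytoid dendritic cells, was at 2.01, 1.249 and 1.22 CPM in the controls and 1.23, 0.817 and 1.77 CPM in the inhibitor libraries, and the testis isoform Cox6b2 was at 2.16, 1.30 and 1.55 CPM in the controls and 1.95, 1.52 and 2.36 CPM in the inhibitor libraries. Neither passed the test, and both overlapped between groups. Per kilobase of transcript, Cox4i1 made up 99.97 ± 0.04% of the Cox4 pair in controls (SD, n = 3), Cox6a1 99.33 ± 0.14% of its pair and Cox6b1 99.00 ± 0.09% of its pair, and the respective shares in inhibitor libraries were 99.96 ± 0.03%, 99.31 ± 0.29% and 98.25 ± 0.53%.

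In complex V, 14 of 17 genes fell with all controls, among them genes of the head, the stalks, the ring and the small membrane subunits. Of the 5 genes of the catalytic F1 head and its central stalk, 4 were lower. Atp5a1, the alpha subunit (chromosome 18, 77773768 to 77782869), was at 1012, 959 and 939.7 CPM in the controls and 814, 781 and 776 CPM in the inhibitor libraries. Atp5b, the beta subunit that holds the catalytic sites (chromosome 10, 128083307 to 128090388), was at 1117, 1021 and 1042 CPM in the controls and 888, 875 and 890.2 CPM in the inhibitor libraries. Both were below every control in every inhibitor library, with changes of -0.30 ± 0.05 (edgeR adjusted p = 0.000403) and -0.26 ± 0.05 (edgeR adjusted p = 0.0011). Atp5d, the delta subunit, was at 196, 148 and 156 CPM in the controls and 133, 122 and 104 CPM in the inhibitor libraries, and Atp5e, the epsilon subunit, was at 99.5, 73.2 and 65.7 CPM in the controls and 58.6, 56.8 and 50.6 CPM in the inhibitor libraries. These 2 small stalk genes fell more, by 0.48 and 0.52 on the log2 scale, and by 0.35 and 0.33 against control libraries 2 and 3. The Atp5e call was lost when no filter on low counts was used (-0.52, edgeR adjusted p = 0.0878). Atp5c1, the gamma subunit that forms the rotating shaft, had a change of -0.08 ± 0.05 and did not pass.

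The peripheral stalk, which keeps the head from turning with the shaft, was lower in 3 of its 4 genes. Atp5f1, the b subunit (chromosome 3, 105942698 to 105959263), was at 277, 258 and 248 CPM in the controls and 230.2, 215 and 205 CPM in the inhibitor libraries. Atp5o, the subunit that confers oligomycin sensitivity (chromosome 16, 91925223 to 91931630), was at 158, 145 and 149 CPM in the controls and 119.5, 126 and 117 CPM in the inhibitor libraries, a change of -0.32 ± 0.06 (edgeR adjusted p = 0.000398). Atp5j, coupling factor 6, was at 138, 112 and 109 CPM in the controls and 96.8, 92.1 and 108 CPM in the inhibitor libraries. All 3 genes were lower in each inhibitor library than in each control, though the gap was small for Atp5j, whose call was lost without inhibitor library 1 (-0.26) or 2 (-0.23). Atp5h, the d subunit, ran from 126.5 to 139.6 CPM in the controls and from 123.0 to 142.3 CPM in the inhibitor libraries, and did not pass (-0.03 ± 0.06).

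The c subunit, whose ring the protons turn, is made from 3 genes that encode the same mature protein, and these moved by different amounts. Atp5g3 (chromosome 2, 73908447 to 73912464) was at 243, 184 and 179 CPM in the controls and 138, 117 and 107 CPM in the inhibitor libraries, a change of -0.74 ± 0.13 (edgeR adjusted p = 0.00147). Atp5g1 was at 126, 102 and 99.6 CPM in the controls and 92.7, 88.6 and 90.6 CPM in the inhibitor libraries, and Atp5g2 was at 259.6, 201 and 219.7 CPM in the controls and 194, 189 and 153 CPM in the inhibitor libraries. Their changes were -0.27 ± 0.08 (edgeR adjusted p = 0.015) and -0.34 ± 0.11 (edgeR adjusted p = 0.0248). The Atp5g1 call was lost without inhibitor library 2 (-0.25) or 3 (-0.26), and that of Atp5g2 without control library 1 (-0.24) or inhibitor library 3 (-0.24). As a share of the 3 genes' summed CPM per kilobase of transcript, Atp5g3 went from 38.1 ± 1.42% in controls to 31.5 ± 1.45% in inhibitor libraries (SD, n = 3 each), Atp5g2 from 44.5 ± 1.63% to 48.4 ± 2.16% and Atp5g1 from 17.4 ± 0.47% to 20.1 ± 1.93%. The Atp5g3 share was 39.3, 38.5 and 36.6% in the controls and 33.0, 30.1 and 31.4% in the inhibitor libraries, with no overlap. The shares were not tested.

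Of the 5 small membrane subunits of complex V, which sit where the enzyme pairs into dimers, 4 were lower. Atp5k, the e subunit (chromosome 5, 108433246 to 108434399), had the steepest fall of all 43 genes. It was at 60.4, 24.9 and 23.1 CPM in the controls and 9.75, 8.75 and 5.31 CPM in the inhibitor libraries. Every inhibitor library was far below the lowest control, a change of -2.18 ± 0.55 with all controls (edgeR adjusted p = 0.0353) and -1.59 ± 0.15 against control libraries 2 and 3 (edgeR adjusted p = 5.15e-09). These are levels of 0.221 and 0.333 of the control, so that control library 1 alone moved the ratio by 1.5 times. With control library 1 in the fit, the call was lost without control library 2 (-2.38), or without inhibitor library 1 (-2.36), 2 (-2.24) or 3 (-1.96), with an edgeR adjusted p between 0.0536 and 0.095, and also with limma-voom (-2.06, adjusted p = 0.0704) or without a filter on low counts (-2.17, edgeR adjusted p = 0.0513). With 90 to 1204 counts per library, Atp5k had the shortest transcript of the set, 221 bases.

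Atp5l, the g subunit, was at 159, 125 and 141 CPM in the controls and 114, 112 and 116 CPM in the inhibitor libraries. Atp5md was at 75.1, 58.7 and 65.7 CPM in the controls and 48.7, 53.4 and 49.9 CPM in the inhibitor libraries, and Atp5mpl, a small proteolipid, was at 78.8, 78.7 and 76.8 CPM in the controls and 67.3, 73.4 and 66.8 CPM in the inhibitor libraries. All 3 were below every control in every inhibitor library, with changes of -0.32 ± 0.07, -0.39 ± 0.08 and -0.17 ± 0.06. The Atp5mpl call was lost without control library 2 (-0.16) or 3 (-0.18) or inhibitor library 1 (-0.16) or 3 (-0.15), and with DESeq2 (-0.17). Atp5j2, the f subunit, had a change of -0.12 ± 0.07 that did not pass.

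**Figure D3:**
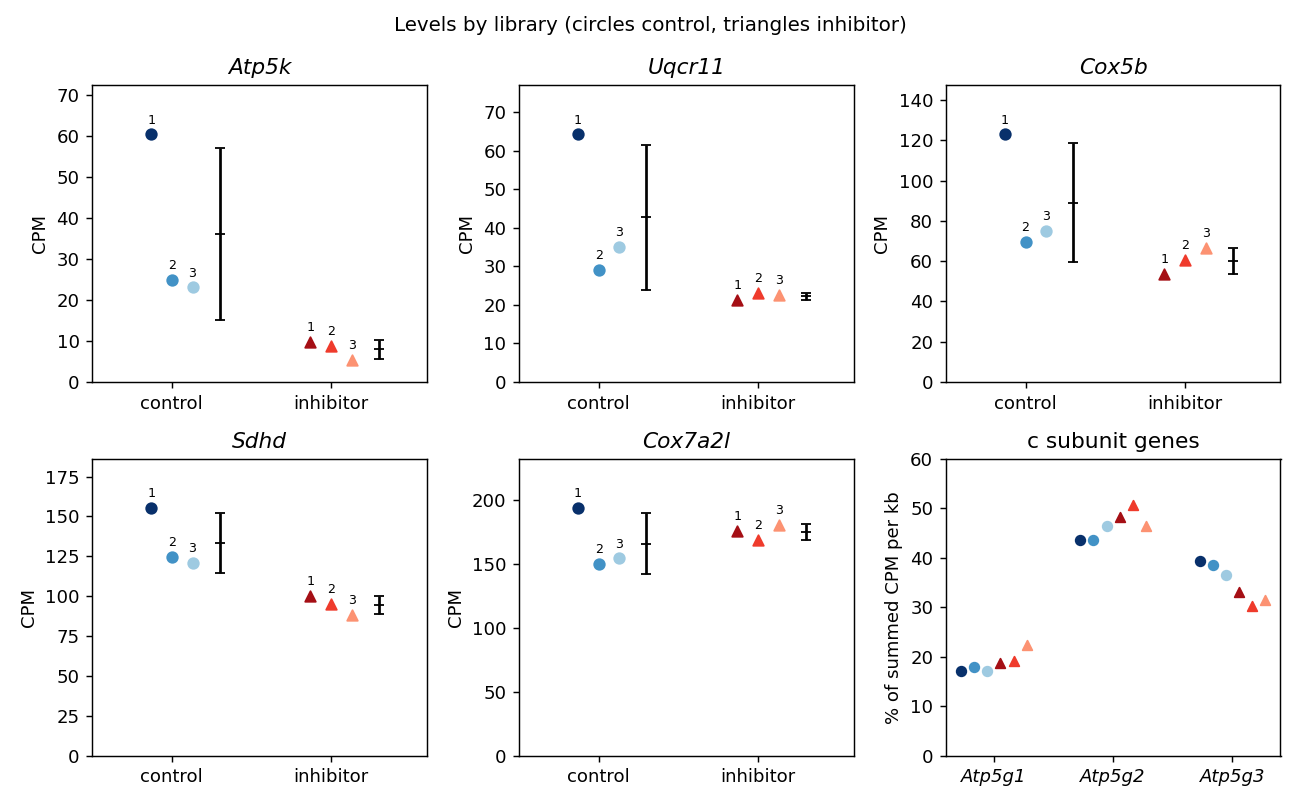
Levels in each library (CPM, vertical axes from 0; numbers name the library) of Atp5k, Uqcr11, Cox5b, Sdhd and Cox7a2l, with the mean and SD of each group beside the points, and the share of each c subunit gene in their summed CPM per kilobase (bottom right). Control library 1 is the highest point for the 5 genes, and the Atp5g3 share is lower in the 3 inhibitor libraries (30.1 to 33.0%) than in the controls (36.6 to 39.3%).

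Genes of these complexes are known to be driven in part by the transcription factor NRF1, so the region from 250 bases before to 50 bases after each RefSeq start (GRCm38.p6) was searched for its core letters GCGCATGCG on both strands. The promoters of Atp5k, called lower with both control sets, of Uqcr11, called lower against control libraries 2 and 3 but not with all controls, and of Uqcrc1, called with neither, are shown because all 3 hold a match. Capitals mark GCGCATGCG or its reverse complement CGCATGCGC (where both overlap, 10 letters), and in Uqcr11 also CCGGAAGT, a core of ETS family sites such as those of GABP.
Atp5k promoter, chr5:108434350-108434649, minus strand: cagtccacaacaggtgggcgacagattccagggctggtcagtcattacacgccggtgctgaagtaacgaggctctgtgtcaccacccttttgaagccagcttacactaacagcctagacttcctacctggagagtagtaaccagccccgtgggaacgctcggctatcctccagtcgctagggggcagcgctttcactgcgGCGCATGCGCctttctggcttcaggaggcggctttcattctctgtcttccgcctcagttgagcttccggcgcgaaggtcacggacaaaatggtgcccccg
Uqcr11 promoter, chr10:80406772-80407071, minus strand: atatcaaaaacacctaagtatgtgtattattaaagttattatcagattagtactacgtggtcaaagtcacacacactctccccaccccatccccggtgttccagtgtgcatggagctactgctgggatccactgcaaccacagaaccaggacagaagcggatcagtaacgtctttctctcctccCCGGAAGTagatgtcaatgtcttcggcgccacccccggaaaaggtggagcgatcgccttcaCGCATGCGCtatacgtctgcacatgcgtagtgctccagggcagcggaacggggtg
Uqcrc1 promoter, chr9:108936398-108936697, plus strand: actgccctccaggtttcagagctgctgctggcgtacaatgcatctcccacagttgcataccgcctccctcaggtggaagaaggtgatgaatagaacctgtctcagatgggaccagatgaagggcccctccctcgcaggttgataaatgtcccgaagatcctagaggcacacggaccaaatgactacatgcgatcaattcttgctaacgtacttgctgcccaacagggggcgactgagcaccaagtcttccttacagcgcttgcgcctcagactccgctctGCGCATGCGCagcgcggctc
The table held 39 promoters of 36 subunit genes. The NRF1 letters were in 6 of the 39 (15.385%) and in 575 of 32851 promoters of all genes (1.75%). They were in Atp5g2, Atp5k, Atp5l, Cox6a1, Uqcr11 and Uqcrc1, of which 4 of 6 were lower with all controls, beside 17 of 27 tested genes whose promoters lacked them. The ETS letters CCGGAAGT were in 4 subunit promoters (10.256%) against 3.887% of all, and the YY1 letters AAGATGGCG in 2 (5.128%) against 1.403%. A match is a description of the letters and not evidence of binding.

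The subunit genes were abundant and short. Their median level in controls was 179.1 CPM per kilobase of the longest transcript against 11.3 over all genes tested, and their median transcript length was 671 bases against 2827. GC content was similar, at 50.5 and 50.1%. On the scale of CPM per kilobase, control means ran from 564 (Atp5b), 441 (Cox4i1) and 399 (Atp5a1) down to 74.2 (Cyc1) and 50.8 (Uqcrq) among the broadly expressed subunits, and to 3.27 (Cox6b2) and 2.27 (Cox6a2). Atp5b, Cox4i1 and Atp5a1 kept the first 3 places in the inhibitor libraries, with 471, 407 and 325. Atp5k went from place 23 to 40 of 43, Atp5g3 from 8 to 15, and Cox7a2l from 25 to 17. The value of Uqcrq uses its longest annotated transcript of 1525 bases, which lowers it if a shorter one is the main form.

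The excess of control library 1 was larger for shorter transcripts. Across the 43 genes, its log2 difference from control libraries 2 and 3 had a Spearman's rho of -0.55 with transcript length, and the inhibitor change against control libraries 2 and 3 had 0.07. These points are genes of the same libraries and not independent, so the values are given as a description. The 18 genes under 600 bases had a median excess of 0.43 in control library 1, and the 25 longer ones 0.23. Of the shorter genes, 9 were lower with all controls and 12 against control libraries 2 and 3, and of the longer ones 17 and 15. Over all genes tested, of any length, 20.1% and 21.5% were lower in these 2 fits. Shares over all genes by length class were not counted. The part of transcript length or RNA quality in the difference between control library 1 and the others was not tested.

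**Figure D4:**
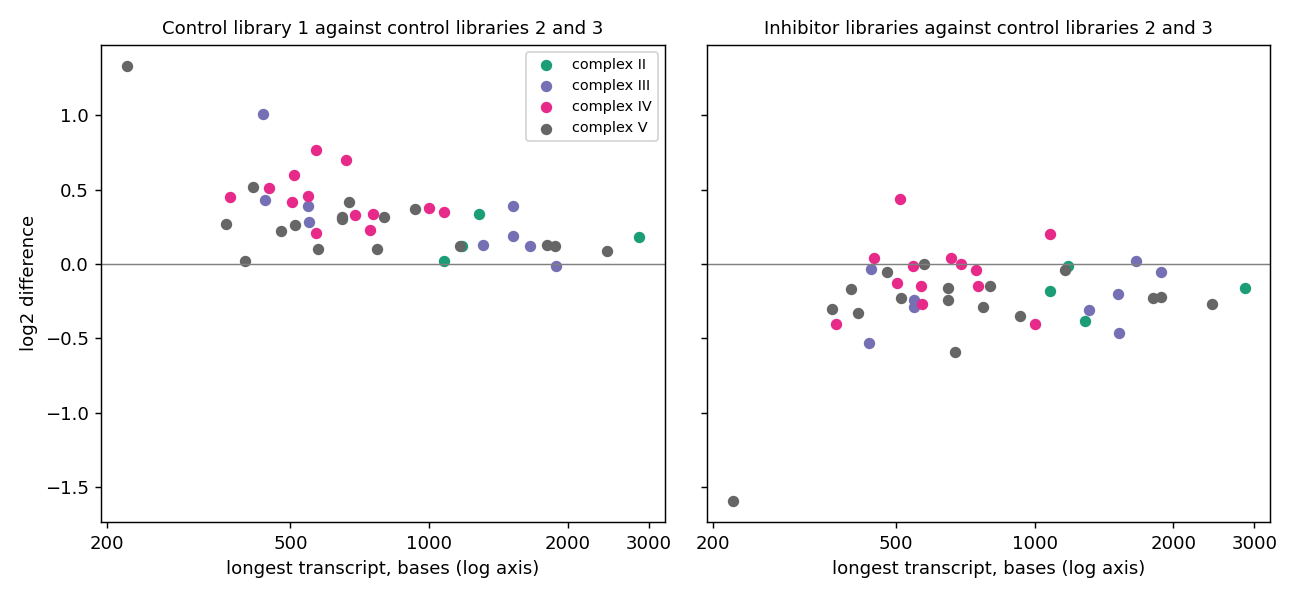
Log2 difference (vertical axis) of each tested subunit gene against the length of its longest transcript (horizontal log axis, bases), for control library 1 against control libraries 2 and 3 (left) and for the inhibitor libraries against the same controls (right). In the left panel the points are highest at the short end, with Atp5k (221 bases) at 1.33, and fall towards longer transcripts (rho -0.55, n = 43), while the right panel shows no such slope (rho 0.07).

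A correction of each library for GC content and transcript length, made with all controls, left 20 of the 43 genes lower and 2 higher, beside 22.4% lower and 23.2% higher over all genes. The median change of the subunit genes was then -0.12. Complex II had 2 lower, complex III 6, complex IV 2 and complex V 10, and the 2 higher genes were Cox7a2l (0.20, edgeR adjusted p = 0.00321) and Atp5h (0.17, edgeR adjusted p = 0.0143). Calls lost were Atp5g2, Atp5j, Atp5l, Atp5mpl, Cox6a1, Cox7a2 and Sdhb, and Uqcr11 was gained. With the correction and without control library 1, 20 were lower and 2 higher, at a median of -0.11. Beside these stand 2826 genes lower and 2946 higher over all genes in that fit. There the 2 higher genes were Cox7a2l (0.27, edgeR adjusted p = 6.67e-07) and Cox7c (0.16, edgeR adjusted p = 0.00866). Atp5h did not pass in that fit (0.11, edgeR adjusted p = 0.0581). The 17 genes lower in all 4 of these fits were Atp5a1, Atp5b, Atp5d, Atp5e, Atp5f1, Atp5g3, Atp5k, Atp5md and Atp5o of complex V, Cox6b1 and Cox7b of complex IV, Cyc1, Uqcrfs1, Uqcrh and Uqcrq of complex III, and Sdha and Sdhd of complex II. How many of all genes tested were lower in all 4 fits was not counted.

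Genes that work with these complexes were read from lists written from general knowledge, and their counts stand beside 20.1% lower and 20.4% higher over all genes tested with all controls, and 21.5% and 21.6% against control libraries 2 and 3. Complex I feeds electrons from NADH to ubiquinone. Of 37 genes with Nduf symbols, listed as its subunits, 21 were lower and 0 higher with all controls (19 and 1 against control libraries 2 and 3), with medians of -0.29 and -0.19. Whether each product, such as that of Ndufa4 (-0.35 ± 0.08), belongs to complex I was not checked. Ndufa5 went from 31.7 ± 3.81 to 19.0 ± 0.86 CPM and Ndufb6 from 33.0 ± 6.54 to 18.7 ± 1.26 CPM (SD, n = 3 per group), changes of -0.74 ± 0.10 and -0.82 ± 0.12. Of 13 genes of cytochrome c and coenzyme Q synthesis, 4 were lower and 0 higher (median -0.21). Cycs, the mobile carrier between complexes III and IV, went from 143.9 ± 11.2 to 103.4 ± 3.002 CPM, a change of -0.48 ± 0.06 (edgeR adjusted p = 2.4e-05), and Coq5, a methyltransferase of coenzyme Q synthesis, had -0.33 ± 0.09. Of 13 citric acid cycle enzymes, 8 were lower and 0 higher (median -0.19), with Mdh2 at -0.28 ± 0.06 and Suclg1 at -0.23 ± 0.06. In these 3 lists DESeq2 and limma-voom also called 0 genes higher, and at an unadjusted p under 0.05 in edgeR's test 1 complex I gene and 0 of the other 2 lists were higher.

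Assembly factors of complex IV were lower in 7 of 23 genes and higher in 1 (median -0.15), beside the same 20.1% lower and 20.4% higher over all genes. Taco1, which activates translation of a mitochondrially encoded complex IV subunit, was at -0.44 ± 0.10, Cox10, which makes haem for the enzyme, at -0.31 ± 0.09, and Coa5 at 0.26 ± 0.05. For complex II, 0 of 4 were lower and Sdhaf2, which attaches the flavin to Sdha, was higher (0.25 ± 0.08). For complex III, 0 of 6 were lower and Ttc19 was higher (0.30 ± 0.10). DESeq2 and limma-voom likewise called 0 lower in both lists, and at an unadjusted edgeR p under 0.05 the counts lower were 0 and 2. Of the 4 tested genes for assembly and inhibition of complex V, 0 were called in edgeR's test, by DESeq2, by limma-voom or at an unadjusted p under 0.05, and the inhibitor protein gene Atpif1 was at -0.04 ± 0.07. Of 10 tested regulators of mitochondrial biogenesis, 4 were lower and 0 higher (median -0.13), among them the coactivators Pprc1 (-0.61 ± 0.07, edgeR adjusted p = 4.53e-06) and Ppargc1b (-0.57 ± 0.09, edgeR adjusted p = 0.000169).

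Markers of other marrow cells moved between the same groups. The 14 megakaryocyte and platelet markers summed to 2308 to 2606 CPM in controls and 5982 to 6093 CPM in inhibitor libraries, and all 14 were higher. The 10 monocyte and macrophage markers summed to 3962 to 4033 CPM and 2447 to 2519 CPM, with 5 lower and 2 higher, and the 12 neutrophil markers to 6565 to 7438 CPM and 5838 to 5987 CPM, with 5 lower and 5 higher and Retnlg at 0 throughout. Erythroid markers summed to 6.25 to 8.03 CPM and 18.9 to 21.7 CPM, with 0 lower and 4 higher of 5 tested. Mast cell and basophil markers summed to 1044 to 1067 CPM and 1140 to 1212 CPM, with 2 lower and 3 higher of 8 tested. Plasmacytoid dendritic cell markers summed to 835 to 945 CPM and 831 to 854 CPM, with 4 lower and 1 higher of 7 tested. Over all genes tested, 20.1% were lower and 20.4% higher. B cell markers were low, at 17.2 to 19.0 CPM and 10.1 to 10.8 CPM, with 2 lower and 0 higher of 2 tested. T cell markers were also low, at 4.22 to 6.29 CPM and 2.54 to 3.49 CPM. Of 3 T cell markers tested, 1 was lower and 0 higher, and Bcl11b was at 0. The part of these cell types in the subunit genes' changes was not tested.

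Counting could not separate every subunit gene from its neighbours or copies. Exons of 11 of the 48 genes overlap an exon of another gene in GENCODE, for example Uqcrc2 with Pdzd9 over 504 bases, Atp5f1 with Wdr77 over 190 and Cox4i1 with Emc8 over 154, each on the opposite strand, and the strand of counting is not given in the sources used here. Many subunit genes also have processed pseudogenes with near-identical sequence, so their counts are uncertain to the extent that reads were shared.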

How the data were processed

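Sorted GFP+ marrow cells were profiled as 3 control and 3 inhibitor mRNA libraries, each used as 1 sample grouped by its title. RNA was extracted with Trizol and libraries were made with a VAHTS mRNA-seq V3 kit, per the labels' protocols. The authors deposited unnormalised read counts per RefSeq gene symbol, summed over transcripts, per the file headers. They also deposited RPKM values per the file headers, which were used only to check the counts. Totals implied by the RPKM values exceeded the summed counts by 2.82, 0.49 and 8.68% in the controls. In the inhibitor libraries the excess was 0.35, 0.25 and 0.22%. The ribosomal RNA gene Rn45s had 20039, 3667 and 61656 counts in the controls and 3145, 2018 and 1784 in the inhibitor libraries. The bearing of these differences on the subunit genes was not tested. Per the submitters' processing notes, the tools included bcl2fastq 2.20 and the build mm10. Not given in the sources used here are the aligner, the counter and the strand of counting. There were 0 columns of samples of other series.

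A filter on low counts (filterByExpr, minimum count 10 and minimum total 15) left 12978 genes, or 13196 without control library 1. The minimum count is applied as a CPM and must be met in as many libraries as the smaller group holds. After TMM scaling (factors 0.985 to 1.008 with all libraries), the robust quasi-likelihood test of edgeR 4.0.16 (R 4.3.3) was applied. Its p-values were adjusted by Benjamini-Hochberg over all genes tested, with a threshold of 0.05. The fit against control libraries 2 and 3 left control library 1 out of the filter and scaling too. Library totals of 16873188 to 21245861 counts set the precision: a tested gene other than Cox6a2 and Cox6b2 had at least 90 counts in every library. Floors taken as 3 counts cover counting error only, since reads without molecular identifiers are not independent molecules.

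The subunit genes and lists were chosen with earlier results of these data known. Per-library values are given for the 4 genes of each complex with the smallest p, for those called without control library 1, and for isoform sets. Of each other list, up to 2 called genes per direction with the smallest p are named. Alternatives were RLE factors, no filter, a stricter filter (1 CPM), leaving out each library, a block for the replicate number, DESeq2 1.42.0, limma-voom 3.58.1, and a loess correction (span 0.4) of each library for GC content and length from GENCODE M21, with all 48 genes matched. Leaving out control libraries 1 and 3 together, and joining the correction with leaving out control library 1, were chosen after seeing the data, as were the alternatives to the fit against control libraries 2 and 3. The fits were tested on simulated data with changes planted in genes drawn from all those tested. Of 50 planted 1.25-fold changes, 28 were recovered with all libraries and 17 without control library 1. In the same runs 11 and 13 unchanged genes were called. The planted genes were far fewer than the 2613 lower and 2646 higher genes of the data. They were also not matched to the levels of the subunit genes, so the rates do not measure recovery for those. A gene that did not pass may still have changed by a small amount. Python 3.11.15 was used for the sequence searches.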

Additional observations from a re-analysis of the deposited data

How the results depend on the processing

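Of the 26 genes called lower, 14 kept that call in all 15 alternatives. The same count was not made over all genes called lower, so it has no background beside it. Leaving out 1 library at a time gave 19 to 27 subunit genes lower and 0 to 1 higher, with a median change of -0.32 to -0.18. By complex the lower counts were 2 to 3 (II), 4 to 6 (III), 2 to 6 (IV) and 10 to 13 (V). Over all genes 1877 to 2843 were lower and 2181 to 2849 higher, and against control libraries 2 and 3 the subunit counts were 20 to 26 lower and 1 higher. The count higher was 1 without control library 1, 1 without control libraries 1 and 3, 2 with the GC and length correction, and 2 with that correction without control library 1. Against control libraries 2 and 3 the correction also gave 2 higher. With the correction, complex IV had 2 lower, and the median was -0.12, or -0.11 also without control library 1. Complex IV had 2 lower without inhibitor library 3, and complex V had 9 lower without control libraries 1 and 3, where Atp5g1, Atp5g2, Atp5l, Atp5md and Atp5mpl did not pass. Without a filter on low counts, 23 subunit genes were lower, and Atp5e, Atp5g2 and Atp5k did not pass. The cause of these shifts was not tested.

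Sign changes were confined, among the settings run, to genes that were not called with all controls, except Atp5mpl (0.03) and Cox6a1 (0.01) under the GC and length correction. That correction also turned Atp5c1 (0.03), Atp5h (0.17), Atp5j2 (0.11), Cox4i1 (0.09), Cox5a (0.05), Cox7c (0.07), Cox8a (0.08), Sdhc (0.05), Uqcr10 (0.08) and Uqcrc1 (0.09). The correction without control library 1 turned Atp5c1 (0.02), Atp5h (0.11), Atp5j2 (0.08), Cox4i1 (0.05), Cox5a (0.09), Cox6a2 (0.14), Cox7c (0.16), Cox8a (0.10), Sdhc (0.05), Uqcr10 (0.09) and Uqcrc1 (0.07). Without control library 1 the turned values were Atp5h 0.00, Cox6a2 0.04, Cox7c 0.04 and Uqcrc1 0.02, and without control libraries 1 and 3 Atp5h 0.04, Atp5j2 0.01, Cox6a2 0.02, Cox7c 0.06, Cox8a 0.09 and Uqcrc1 0.04. Without inhibitor library 1 Atp5h was at 0.01, and without inhibitor library 2 Cox6a2 was at 0.00 and Uqcrc1 at 0.01. Over all fits without 1 library, Atp5h ran from -0.09 to 0.01, Cox6a2 from -0.52 to 0.04, Cox7c from -0.24 to 0.04 and Uqcrc1 from -0.04 to 0.02.

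With the replicate number as a block, 27 subunit genes were lower and 0 higher, and 26 were lower against control libraries 2 and 3. Cox6c was the gene gained (-0.27). Same-numbered libraries did not deviate together, with correlations of 0.058, 0.008 and 0.037 for numbers 1 to 3, so the numbers are not taken to pair the samples. Depth limited the results for Cox4i2, Cox7a1, Cox6a2 and Cox6b2, with at most 43 counts in a library. A difference in these could have been missed at this depth.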
